A study of Mus musculus with 25 samples.

Results

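Lymphoid organising chemokines and lymphotoxins were followed as a set of 9 genes, picked by symbol from the 55450 genes of a count table of mouse melanomas. They are the chemokines Cxcl13, Ccl19 and Ccl21a, their receptors Cxcr5 and Ccr7, the lymphotoxin genes Lta and Ltb, the receptor gene Ltbr, and Glycam1. The count table held a row for all 9, and 8 passed a filter on low counts, Glycam1 being the exception. Levels were compared between tumours treated with anti-CTLA-4 and controls, and between treatment outcomes, beside markers of the cell types found in lymph nodes and tertiary lymphoid tissue.

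As background, lymph nodes form where lymphotoxin, a trimer of the Lta and Ltb products on lymphocytes and lymphoid tissue inducer cells, engages the Ltbr product on stromal cells. Non-canonical NF-kB signalling through NIK and RelB then turns on chemokine genes in that stroma. CXCL13 draws B cells and follicular helper T cells through CXCR5 into follicles, and CCL19 and CCL21 draw naive T cells and mature dendritic cells through CCR7 into the T cell zone. Ccl21a is also made by lymphatic endothelium, while GlyCAM-1 is a mucin-like glycoprotein of the high endothelial venules of lymph nodes. Tertiary lymphoid tissue is a similar arrangement that arises in inflamed organs and tumours.

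The tumours were grown in C57BL/6 mice from the mouse melanoma line B2905, also named M4. Of 40 implanted mice, 30 received antibody against CTLA-4, an inhibitory receptor of T cells, at 10 mg/kg, and 5 received isotype IgG2b at 10 mg/kg. Dosing began once tumours averaged 75 mm3. Sequencing covered 20 anti-CTLA-4 tumours and 5 IgG2b tumours, and the 5 mice that got no antibody were not analysed here. Tumour size 10 to 11 days past the final dose set the outcome: 8 responders became smaller, 6 stable tumours held their size and 6 non-responders became larger. All 4 groups carry the same implanted line. The IgG2b tumours are called controls below, and tumours are numbered within their group in record order.

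Libraries held 8.76 to 34.3 M counts. Protein-coding genes took 82.9% to 89.2% of counts in the 17 libraries of the other groups but 23.8% to 87.0% in responders, where only responder 5 lay within the range of the other groups. The numbers that open the library names ran by group. The labels do not say what they stand for, so any order they record cannot be told apart from group. No set of replicates agreed within counting noise. Values below are CPM, the count relative to the TMM-scaled library size, and a gene was called where the edgeR quasi-likelihood test gave an adjusted p under 0.05 over 18031 genes. In bulk tumour RNA, a larger number of cells of a type and more RNA per cell cannot be told apart.

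Most of the 9 genes were higher in treated tumours than in controls, and Ltbr was lower. Averaged over the 3 outcomes, anti-CTLA-4 tumours had 7 of the 9 called higher and 1, Ltbr, called lower. Over all genes tested in that comparison, 27.7% were called higher and 23.4% lower. Called higher in stable tumours were 7 members, against 22.2% of all genes, and 1 was called lower, against 19.6%. For responders the counts were 6 higher and 1 lower, against 36.1% and 28.9% of all genes. For non-responders they were 5 higher and 0 lower, against 10.6% and 3.29%. These comparisons share the 5 controls. Ccl19, Cxcr5 and Lta had at most 7 counts in any control and passed the low-count filter through the treated tumours, so their share of these counts was partly set by the filter.

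**Figure D1:**
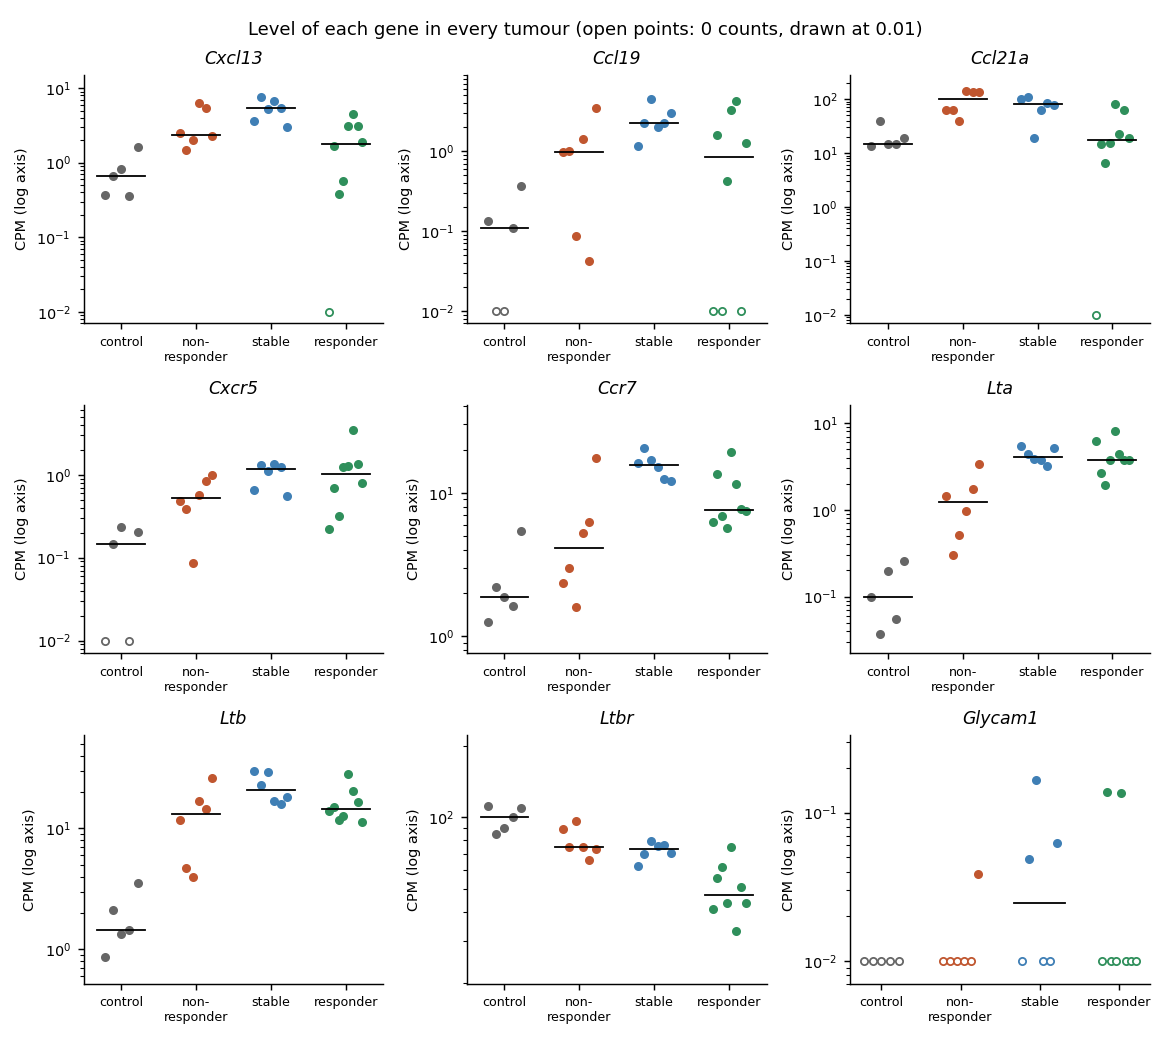
Level of each of the 9 genes in every tumour, in CPM on a log axis, by group; a filled point is 1 tumour, a line is the group median and an open point is a tumour with 0 counts, drawn at 0.01. Lta and Ltb are higher in all 20 treated tumours than in all 5 controls, Ltbr is lower in most, and Glycam1 reaches at most 0.167 CPM.

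The lymphotoxin genes had the clearest separation. Lta (ENSMUSG00000024402.5, GRCm38 chromosome 17, 35203165 to 35205351) encodes lymphotoxin alpha, which is secreted on its own or held at the cell surface by lymphotoxin beta. In controls 1 to 5 its level was 0.1, 0.0368, 0.196, 0.0548 and 0.259 CPM, resting on 1 to 5 counts each. Non-responders ran from 0.302 through a median of 1.22 to 3.40 CPM, stable tumours from 3.21 through 4.12 to 5.41 CPM, and responders from 1.93 through 3.74 to 8.13 CPM. All 20 treated tumours lay above every control. Relative to controls, the log2 fold change of Lta was 5.07 for stable tumours (SE 0.59, adjusted p = 9.72e-07), 5.07 for responders (SE 0.58, adjusted p = 2.7e-07) and 3.45 for non-responders (SE 0.56, adjusted p = 0.00049). Both of the other outcomes exceeded non-responders in Lta, stable tumours by 1.61 (SE 0.45, adjusted p = 0.0179) and responders by 1.61 (SE 0.43, adjusted p = 0.00421). Only 1 of 6 non-responders, the sixth, lay within the stable range. Responders and stable tumours differed in Lta by 0.00 (SE 0.41, adjusted p = 0.998), and their ranges overlapped.

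Ltb (ENSMUSG00000024399.5, chromosome 17, 35194439 to 35196320), near Lta on the same chromosome, encodes the membrane-bound subunit of the trimer. Controls 1 to 5 had 0.867, 2.10, 1.33, 1.45 and 3.52 CPM. Non-responders spanned 4.00 to 26.2 CPM with a median of 13.0, stable tumours 16.0 to 29.7 with a median of 20.6, and responders 11.3 to 28.4 with a median of 14.6. Again no treated tumour overlapped the controls. Ltb rose by 3.59 log2 units over controls in stable tumours (SE 0.44, adjusted p = 1.55e-06), 3.15 in responders (SE 0.42, adjusted p = 1.69e-06) and 2.83 in non-responders (SE 0.43, adjusted p = 0.000442). Between outcomes no Ltb difference was called. The stable minus non-responder value of 0.77 (SE 0.37, adjusted p = 0.164) was called without non-responder 6, at 1.10.

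Ltbr (ENSMUSG00000030339.7, chromosome 6, 125306571 to 125313885) encodes the receptor of the trimer and of LIGHT, and is carried by stromal, epithelial and myeloid cells rather than by lymphocytes. Controls 1 to 5 stood at 111, 84.6, 90.2, 99.7 and 109 CPM. The median was 74.9 CPM in non-responders (66.1 to 96.1), 73.0 in stable tumours (62.3 to 79.7) and 47.2 in responders (33.1 to 75.0). Every stable tumour and every responder lay below every control, and 4 of 6 non-responders did. The fall against controls was called in responders (log2 fold change -0.97, SE 0.14, adjusted p = 4.28e-06) and stable tumours (-0.45, SE 0.15, adjusted p = 0.0192), and it was -0.32 in non-responders (SE 0.15, adjusted p = 0.159). The stable call was lost without control 1 or control 5, with values between -0.50 and -0.41 over all tumours left out singly. The median over all genes moved by 0.16 in responders minus controls, in the direction opposite to Ltbr. Beside this, the summed level of 7 melanocytic markers, led by Dct and Tyrp1, was 10504 to 17110 CPM for controls, 723 to 13868 for non-responders, 227 to 504 for stable tumours and 303 to 722 for responders. Its part in the Ltbr difference was not tested.

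**Figure D2:**
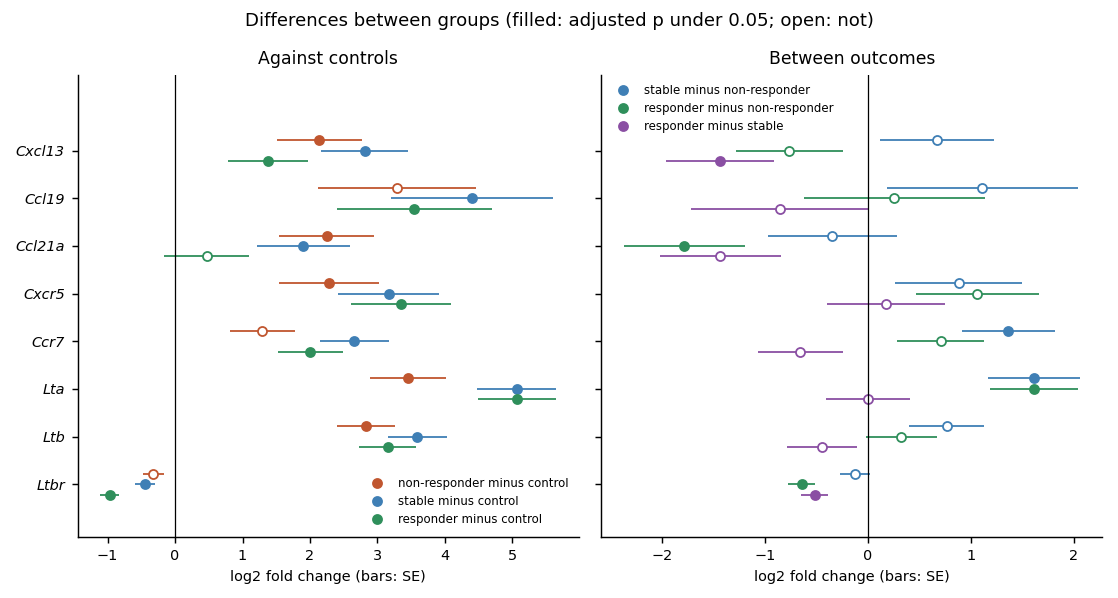
Log2 fold changes of the 8 genes tested, against controls (left) and between outcomes (right), from the edgeR fit over 25 tumours; bars are standard errors and filled points have an adjusted p under 0.05. Lta lies furthest to the right in all 3 control comparisons, and Lta, Ltb, Cxcl13 and Cxcr5 are filled in each; Ltbr is the only gene below 0 in all 3 control comparisons.

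The CXCL13 and CXCR5 pair was present at low levels. Cxcl13 (ENSMUSG00000023078.6, chromosome 5, 95956951 to 95961068), the B cell attractant of follicles, had 0.367, 0.663, 0.822, 0.356 and 1.60 CPM in controls 1 to 5. Non-responders had 1.47 to 6.27 CPM (median 2.38), stable tumours 3.05 to 7.60 (median 5.38) and responders 0 to 4.53 (median 1.78). All 6 stable tumours lay above every control, as did 5 of 6 non-responders and 5 of 8 responders. Responder 1 had no Cxcl13 count, which in its scaled library of 4.48 M counts allows a level of up to 0.669 CPM, counting error only. That library had the smallest protein-coding share, 23.8%. Cxcl13 rose by 2.81 log2 units over controls in stable tumours (SE 0.64, adjusted p = 0.000993), 2.14 in non-responders (SE 0.63, adjusted p = 0.0233) and 1.37 in responders (SE 0.59, adjusted p = 0.0457).

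Among outcomes, the log2 fold change of Cxcl13, responders minus stable tumours, was -1.44 (SE 0.52, adjusted p = 0.0335). Here 5 of 8 responders lay below every stable tumour. All responders but responder 5 had under 75% of counts in protein-coding genes. A fit that added this share as a covariate gave -0.41 (adjusted p = 0.841), and a fit without the 3 responders under 65% gave -1.20 (adjusted p = 0.116), for Cxcl13 in responders minus stable tumours. The first of these fits called 0% of all genes in that comparison and the second 7.85%, against 38.2% with all tumours and no covariate, so the lost call says nothing particular to Cxcl13. With only these groups in the fit it was -1.40 (adjusted p = 0.0557). The call was also lost without stable 2, 4 or 5 or responder 4 or 8, with values from -1.73 to -1.26. The responder minus control value was 2.48 with the covariate (adjusted p = 0.0106) and 1.62 without the 3 responders under 65% (adjusted p = 0.0147). That call was lost without any 1 of 13 tumours (1.09 to 1.81): controls 1 to 4, non-responder 1, stable 3 to 5, or responders 2 and 5 to 8. The non-responder minus control call was lost without control 1, 2 or 4 or non-responder 4 or 5 (1.85 to 2.58).

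Cxcr5 (ENSMUSG00000047880.15, chromosome 9, 44511787 to 44561877) encodes the receptor on B cells and follicular helper T cells. Its counts were small, 0, 4, 6, 0 and 4 in controls 1 to 5 and 1 to 37 in treated tumours. In CPM, non-responders had 0.0859 to 0.994 (median 0.527), stable tumours 0.56 to 1.35 (median 1.18) and responders 0.223 to 3.49 (median 1.03). Stable tumours did not overlap controls, and 7 of 8 responders and 5 of 6 non-responders lay above every control. Responder 6, at 3.49 CPM, stood apart from the other 7 responders, the next of which had 1.36 CPM. Log2 fold changes against controls were 3.35 in responders (SE 0.74, adjusted p = 0.000408), 3.17 in stable tumours (SE 0.75, adjusted p = 0.0014) and 2.28 in non-responders (SE 0.74, adjusted p = 0.0415). The last call was lost without control 1, 2 or 4, non-responder 4, 5 or 6 or stable 4 (1.92 to 2.74). By limma on log2(RPKM + 1), Cxcr5 was not called in stable tumours (0.31, adjusted p = 0.0625) or non-responders (0.22, adjusted p = 0.305) against controls. No Cxcr5 difference between outcomes was called. Responders minus non-responders was 1.06 (SE 0.59, adjusted p = 0.137) and stable minus non-responders 0.88 (SE 0.62, adjusted p = 0.358), with 4 of 8 responders and 4 of 6 stable tumours above every non-responder. Responders minus stable was 0.18 (SE 0.57, adjusted p = 0.823), and it became -0.28 without responder 6.

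Around its start site, Cxcl13 carries a stretch of letters known as a kappaB element, as does Ltb, the 2 members whose RefSeq promoter (GRCm38.p6, 250 bases before the start) held either motif searched. The promoter table listed 7 of the 9 genes. The 2 motifs were GGGACTTTC, the canonical kappaB letters, and GGGAGATTT, taken from what is known of Cxcl13, so that its match there was fixed by the choice. Both were searched on both strands, and the 2 matches do not overlap. The first is in 0.289% and the second in 0.283% of 32851 promoter windows of the same length. These 2 promoters are shown because kappaB elements are where NF-kB dimers downstream of Ltbr bind; the match in capitals is a description of the letters and no measure of binding. In Cxcl13 it starts 114 bases before the start site on the gene's strand, and in Ltb 86 bases before it on the other strand. The windows are chr5:95956689-95956938 and chr17:35194257-35194506, both on the plus strand. Their start sites are those of RefSeq. These differ from the gene starts given above, 95956951 for Cxcl13 and 35194439 for Ltb, and the Ltb window runs past the latter.
Cxcl13 promoter: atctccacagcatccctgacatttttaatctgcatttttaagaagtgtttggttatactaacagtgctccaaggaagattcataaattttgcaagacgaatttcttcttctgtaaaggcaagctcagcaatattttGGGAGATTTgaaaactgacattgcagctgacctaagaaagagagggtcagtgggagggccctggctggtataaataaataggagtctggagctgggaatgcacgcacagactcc
Ltb promoter: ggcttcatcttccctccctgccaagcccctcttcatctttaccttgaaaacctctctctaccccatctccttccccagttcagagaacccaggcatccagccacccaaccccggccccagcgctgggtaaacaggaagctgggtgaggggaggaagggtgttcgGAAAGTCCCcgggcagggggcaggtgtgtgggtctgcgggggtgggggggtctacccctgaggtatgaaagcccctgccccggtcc

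Ccr7 (ENSMUSG00000037944.8, chromosome 11, 99144196 to 99155077), the receptor that guides naive T cells and mature dendritic cells, was at 1.27, 2.21, 1.88, 1.62 and 5.43 CPM in controls 1 to 5. Non-responders had 1.59 to 17.5 CPM (median 4.12), stable tumours 12.1 to 20.5 (median 15.6) and responders 5.73 to 19.4 (median 7.60). All stable tumours and responders lay above every control. Only 2 of 6 non-responders did, and the highest of them, non-responder 6 at 17.5 CPM, stood well above the next at 6.28 CPM. Ccr7 rose against controls by 2.66 in stable tumours (SE 0.51, adjusted p = 0.000175) and 2.00 in responders (SE 0.48, adjusted p = 0.000926). In non-responders the value was 1.29 (SE 0.49, adjusted p = 0.0778), and it fell to 0.59 when non-responder 6 was left out. It was called without control 5, at 1.79, and also without non-responder 3.

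Between outcomes, stable tumours exceeded non-responders in Ccr7 by 1.36 (SE 0.45, adjusted p = 0.0427). The call was lost without control 2, any of non-responders 1 to 5 or any of stable 1 to 4, and the value was 1.17 to 2.06 over all tumours left out singly. Responders minus non-responders was 0.71 (SE 0.42, adjusted p = 0.166), and this was called, at 1.41, without non-responder 6. Responders minus stable was -0.66 (SE 0.41, adjusted p = 0.21), with 6 of 8 responders below every stable tumour.

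Ccl21a (ENSMUSG00000094686.1, chromosome 4, 42772860 to 42773993) was the most abundant of the lymphoid chemokines. Controls 1 to 5 had 13.7, 39.4, 14.5, 14.9 and 18.6 CPM. Non-responders had 39.7 to 143 CPM (median 98.4), stable tumours 19.1 to 108 (median 81.3) and responders 0 to 79.9 (median 17.2). All 6 non-responders lay above every control, as did 5 of 6 stable tumours, while 6 of 8 responders fell below every non-responder. Relative to controls, Ccl21a changed by 2.25 in non-responders (SE 0.70, adjusted p = 0.0341) and 1.90 in stable tumours (SE 0.69, adjusted p = 0.0305), while responders gave 0.47 (SE 0.63, adjusted p = 0.529). Responders minus non-responders was -1.78 (SE 0.59, adjusted p = 0.0165), and responders minus stable was -1.44 (SE 0.59, adjusted p = 0.0564).

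When the protein-coding share entered the fit as a covariate, the Ccl21a value for responders minus non-responders was -0.74 (adjusted p = 0.532), and the share of all genes called there was 10.04% in place of 48.9%. The same fit gave 1.62 for responders minus controls (adjusted p = 0.0933). Without the 3 responders under 65%, responders minus non-responders was -1.74 (adjusted p = 0.02). Responder 5, whose protein-coding share of 87.0% resembled the other groups, had 79.9 CPM, above 3 of 6 non-responders. Because low shares occurred in responders only, composition and response cannot be told apart. Against controls, the stable call was lost without control 1, 3, 4 or 5 or stable 1 or 2 (1.78 to 2.29). The non-responder call was lost without control 1, 3, 4 or 5 or non-responder 4, 5 or 6 (2.10 to 2.64), and that of all anti-CTLA-4 tumours, 1.54 (SE 0.61, adjusted p = 0.0386), without control 1, 3, 4 or 5 or non-responder 4 (1.39 to 1.93). Without the low-count filter none of these 3 was called: the value was 1.40 for all anti-CTLA-4 tumours (adjusted p = 0.105), 1.75 for stable tumours (adjusted p = 0.0858) and 2.14 for non-responders (adjusted p = 0.0932). The responder minus stable value was called without stable 3 or responder 5 or 7 (-1.89 to -1.25).

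Reads of Ccl21a cannot be fully told from those of its copies on the same chromosome. GENCODE M21 lists 4 genes at least 99.3% identical to it over the aligned part of the transcript, and estimated counts in all tumours fell 68.2% to Ccl21a, 29.2% to Gm21541 and 2.48% to Gm13304, with 0.0921% each to Ccl21b and Gm10591. The coding sequences of Ccl21a and Gm21541 differ at 2 of 402 bases, T84A and C194T, counted from base 1 of the coding sequence with the Ccl21a base first. Gm13304 has the same pair of differences. The stretch that holds both is shown, bases 72 to 206 from GENCODE M21, with the differing bases in capitals as an example of how few letters separate them. The rest of the transcripts, which are not shown, also hold differences.
Ccl21a: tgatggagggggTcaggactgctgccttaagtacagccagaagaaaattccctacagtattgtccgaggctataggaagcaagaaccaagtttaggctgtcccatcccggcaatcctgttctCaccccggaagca
Gm21541: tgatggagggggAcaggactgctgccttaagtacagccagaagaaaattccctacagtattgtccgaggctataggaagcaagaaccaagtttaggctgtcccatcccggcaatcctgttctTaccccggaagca

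The share of the family assigned to Gm21541 had a median of 31.9% in controls, 32.9% in non-responders and 29.7% in stable tumours but 6.72% in responders, and it was 3.58% in stable 3. Gm13304, with the same pair of coding differences, had a median share of 14.8% for responders and 0% for every other group. In stable 3 its share was 30.6%. The split between these 2 copies therefore was not the same in all groups. Group medians of the Ccl21a share itself ran only from 65.5% (non-responders) to 70.7% (responders). Single responders spread more widely, from 0% in responder 1 to 89.5% in responder 3. Responder 5 had 32.8% on Gm21541. Summed over all 5 copies, the level was 20.0 to 57.8 CPM for controls, 61.7 to 211 for non-responders, 29.1 to 153 for stable tumours and 2.90 to 119 for responders. Summing gave responders minus non-responders -1.82 (SE 0.56, adjusted p = 0.0102) and responders minus stable -1.44 (SE 0.55, adjusted p = 0.0434), so that the second difference was called with the copies summed.

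Ccl19 (ENSMUSG00000071005.7, chromosome 4, 42754525 to 42756577), the other CCR7 ligand, made by fibroblastic reticular cells and mature dendritic cells, had 4, 0, 0, 4 and 7 counts in controls 1 to 5. Control levels were 0 to 0.362 CPM. Non-responders had 0.0416 to 3.48 CPM (median 0.984), stable tumours 1.18 to 4.57 (median 2.25) and responders 0 to 4.25 (median 0.835). Stable tumours alone did not overlap the controls. Log2 fold changes against controls were 4.40 in stable tumours (SE 1.20, adjusted p = 0.00454), 3.55 in responders (SE 1.15, adjusted p = 0.00948) and 3.29 in non-responders (SE 1.17, adjusted p = 0.0609). The responder value was 5.47 with the protein-coding share as covariate (adjusted p = 0.00267). The non-responder value was called without control 5, non-responder 3 or responder 3 or 7, with values from 2.55 to 4.06.

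Here too a copy took part of the counts. Of the Ccl19 family's counts 74.7% fell on Gm2564 and 22.9% on Ccl19. The coding sequences of 327 bases differ at 1 base, T2C, which lies in the start codon, and the first 61 bases are shown with that base in capitals.
Ccl19: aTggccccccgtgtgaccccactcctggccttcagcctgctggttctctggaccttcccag
Gm2564: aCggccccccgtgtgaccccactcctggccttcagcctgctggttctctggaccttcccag

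Summed over 5 copies, the Ccl19 level was 0.233 to 0.828 CPM for controls, 0.945 to 13.3 for non-responders, 7.76 to 18.1 for stable tumours and 1.29 to 14.3 for responders. With copies summed, all 20 treated tumours lay above every control. The sum rose against controls by 3.15 in non-responders (SE 0.68, adjusted p = 0.00272), and stable minus non-responder was 1.45 (SE 0.57, adjusted p = 0.0858). Non-responder 6 had the top sum of its group at 13.3 CPM, the next being 4.69 CPM. In the responders, 6 of 8 sums lay below every stable tumour.

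Glycam1 (ENSMUSG00000022491.5, chromosome 15, 103562759 to 103565081) was close to absent from the counts. It had 11 counts in 25 tumours, spread over 6 of them: 1 in non-responder 6, 1, 3 and 1 in stable 2, 3 and 6, and 2 and 3 in responders 2 and 5. Its highest level was 0.167 CPM, in stable 3. The 5 controls had 0 counts, which over their scaled total allows up to 0.0217 CPM by 3 counts. No fold change is given at this depth. Without the low-count filter, responders minus controls reached an adjusted p of 0.048 on 5 counts in 2 tumours, while stable minus controls gave 0.065.

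Per kilobase of transcript, which allows genes to be set side by side, the order of median levels in stable tumours was Ccl21a (93.4 CPM per kb), Ltbr (31.0), Ltb (13.6), Ccr7 (7.88), Cxcl13 (4.68), Lta (2.98), Ccl19 (2.59) and Cxcr5 (0.354). This order uses the counts on each gene's own entry: Gm2564, the copy that holds most Ccl19 family counts, alone had 7.38 to 18.9 CPM per kb in stable tumours, so the place of Ccl19 depends on how copies are counted. In controls Ltbr led at 42.3 CPM per kb, followed by Ccl21a at 17.2, and Ltb, Ccr7, Cxcl13, Ccl19, Lta and Cxcr5 were all under 1. Neighbours such as Lta (3.11 ± 0.619, SD, n = 6) and Ccl19 (2.93 ± 1.33) in stable tumours did not differ beyond their spread.

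Between outcomes fewer members were called. Stable minus non-responder had 2 called higher, Lta and Ccr7, and 0 lower, against 7.08% and 7.86% of all genes. Responder minus non-responder had 1 higher, Lta, and 2 lower, Ccl21a and Ltbr, against 25.2% and 23.8%. Responder minus stable had 0 higher and 2 lower, Cxcl13 and Ltbr, against 20.5% and 17.8%. The members' shares in the last 2 comparisons were near those of all genes. Ltbr fell in responders against non-responders by 0.64 (SE 0.13, adjusted p = 0.000731) and against stable tumours by 0.52 (SE 0.13, adjusted p = 0.0069), and 7 of 8 responders lay below every tumour of either group. With that covariate the Ltbr values were -0.39 (adjusted p = 0.0891) and -0.26 (adjusted p = 0.455), and without the 3 responders under 65% they were -0.54 (adjusted p = 0.0129) and -0.43 (adjusted p = 0.0754). Lta in responders minus non-responders was 1.54 with the covariate (adjusted p = 0.0499).

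Genes that act around the lymphotoxin receptor rose together with Lta and Ltb. Of 20 listed genes of the lymphotoxin, TNF and non-canonical NF-kB pathway, 19 were tested, and 18 were higher and 0 lower in anti-CTLA-4 tumours than in controls, with a median log2 fold change of 1.49 against 0.07 for all genes. Leading examples were the ligands Tnf at 3.18, Tnfsf11 (RANKL) at 2.77 and Tnfsf14 (LIGHT), which shares Ltbr as a receptor, at 2.72. By outcome, 18 were higher in responders, 18 in stable tumours and 16 in non-responders, and 0 were lower. Shares of all genes called higher were 36.1%, 22.2% and 10.6% in these groups, and 27.7% in anti-CTLA-4 tumours. Against non-responders, stable tumours had 11 of 19 higher (median 0.73), where 7.08% of all genes were, and responders had 11 of 19 higher (median 0.48), where 25.2% were. Responders had 2 genes below stable tumours, the adhesion gene Vcam1 at -0.93 and the TNF receptor gene Tnfrsf1a at -0.36, and 0 above. For all genes these shares were 17.8% below and 20.5% above. Tnfrsf1b, which encodes a TNF receptor of leukocytes, rose by 1.16 in stable tumours and 0.79 in responders against non-responders, unlike Ltbr.

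Other chemokines of a published 12-chemokine signature of tumour lymphoid structures were also mostly higher in anti-CTLA-4 tumours. Of the 8 listed besides the members, 7 were higher and 0 lower in anti-CTLA-4 tumours than in controls (median 1.97), led by Cxcl9 at 3.52, Ccl5 at 2.95 and Cxcl10 at 2.24, which attract effector T cells. By outcome, 7 exceeded controls in stable tumours, 5 in responders and 4 in non-responders. Of all genes 22.2%, 36.1% and 10.6% did, and 27.7% did in anti-CTLA-4 tumours. In responders 2 were below stable tumours, Ccl8 at -1.40 and Cxcl9 at -1.07, where 17.8% of all genes were lower. Of 16 other homeostatic chemokine and guidance genes 14 were tested and 7 were higher and 0 lower than in controls, among them the chemokine receptors Ccr9 at 2.45 and Cxcr4 at 1.68.

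Lymphocyte markers were higher in treated tumours. All 9 T cell markers were called higher in each outcome group than in controls, and their summed level was 9.73 to 30.4 CPM for controls, 26.1 to 212 for non-responders, 156 to 248 for stable tumours and 112 to 273 for responders. All 10 B cell markers were higher in anti-CTLA-4 tumours than in controls, where 27.7% of all genes were. By outcome, 10 were called in responders, 9 in stable tumours and 3 in non-responders, where 36.1%, 22.2% and 10.6% of all genes were called higher. Tested directly against non-responders, 1 of 10 was called in responders and 1 of 10 in stable tumours, both upward. Of all genes, 25.2% and 7.08% were called higher there. The B cell sum ran from 5.45 to 11.7 CPM for controls, 8.38 to 48.4 for non-responders, 39.4 to 66.4 for stable tumours and 22.1 to 75.7 for responders. Most of it was Cd22 (mean 33.6 ± 8.05 CPM, SD, n = 6, in stable tumours), a gene of B cells that some other leukocytes also express. The T cell gene Cd8a averaged 31.4 CPM in the same tumours.

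Markers of follicles and germinal centres were mixed. Of 7 germinal centre B and follicular helper T cell genes 5 were tested, and all 5 were higher in anti-CTLA-4 tumours than in controls, with Sh2d1a at 2.79, Gcsam at 1.03 and Bcl6, a repressor also made by other cells, at 1.01. The sum of the list, led by S1pr2 and Bcl6, was 51.0 to 76.2 CPM in controls and 66.0 to 110 in treated tumours. Among 6 genes listed for follicular dendritic and marginal reticular cells, 3 were called higher and 1 lower: Tnfsf11 rose by 2.77 and Enpp2 fell by 1.37. In that comparison 27.7% of all genes were called higher and 23.4% lower. The follicular dendritic cell receptor genes Cr2 and Fcer2a, which B cells also carry, averaged 0.415 ± 0.217 and 0.295 ± 0.114 CPM in stable tumours (SD, n = 6). The list's sum, mostly Mfge8 and Enpp2, was 202 to 444 CPM in controls and 211 to 275 CPM in stable tumours.

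**Figure D3:**
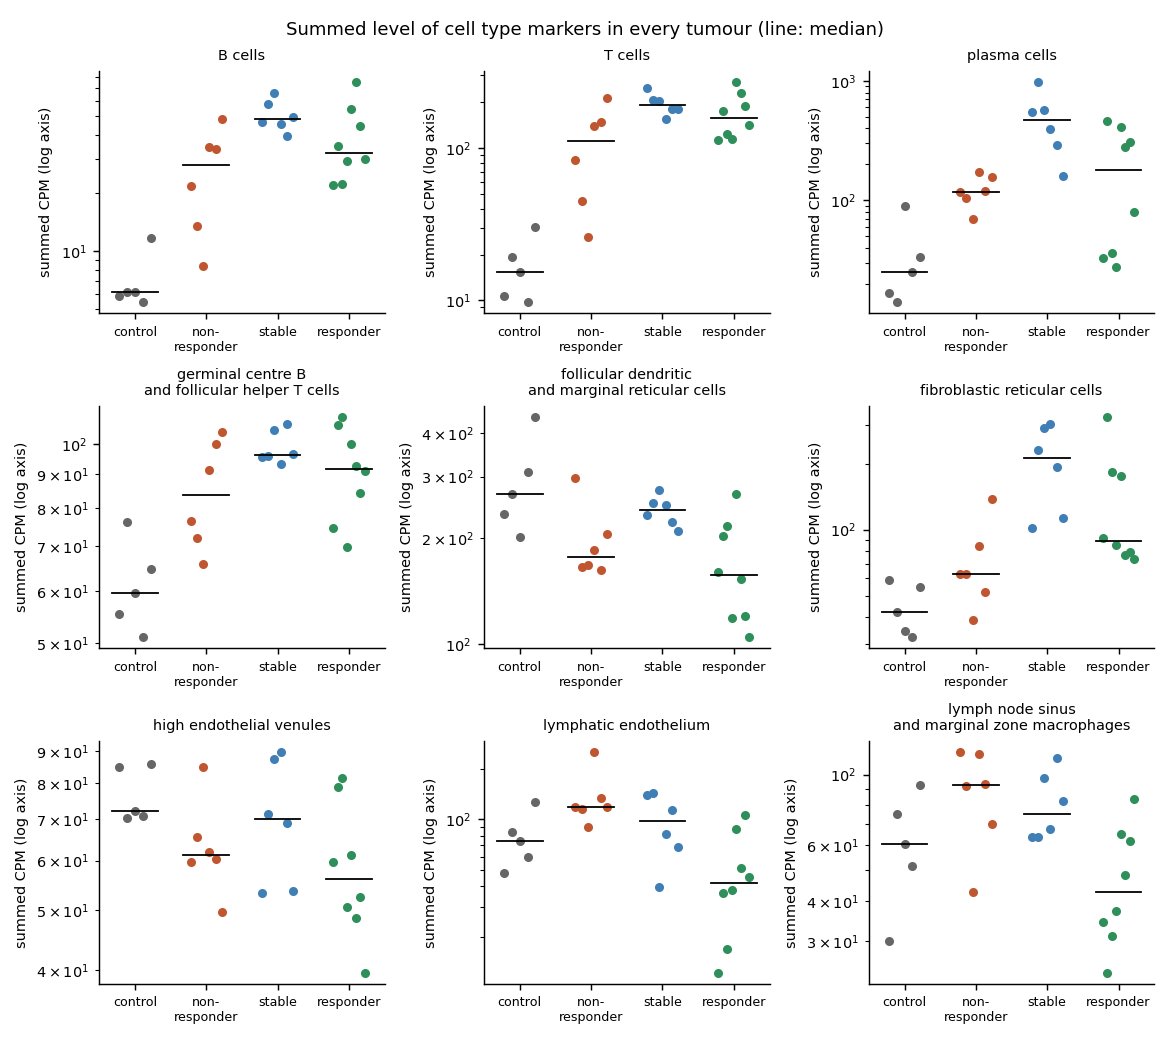
Summed CPM of marker genes for 9 cell types in every tumour on log axes, by group, with the group median as a line. T cell sums reach 112 CPM or more in every stable tumour and responder, against at most 30.4 CPM in controls, and high endothelial venule sums overlap in all 4 groups.

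High endothelial venule genes gave a mixed picture. Of 6 listed, 4 were tested and 2 were higher than in controls, Fut7 at 2.81, an enzyme also made by activated leukocytes, and Ackr1 at 1.53, the venular chemokine-binding receptor. The share of all genes called higher was 27.7%. Chst4, a sulfotransferase of these venules, had 0 counts in controls. Stable tumours had 32 Chst4 counts in all, responders 6 and non-responders 3, and the highest level was 0.892 CPM, in stable 3. That tumour also had the highest Glycam1 level in CPM, though not by the authors' RPKM. The summed level of the list, led by Gcnt1 and Chst2, overlapped between all groups (70.3 to 86.0 CPM in controls, 53.3 to 89.7 in stable tumours).

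Fibroblastic reticular cell genes rose, with 4 of 6 called higher and 0 lower against controls, led by Bst1 at 3.20 and the survival factors Tnfsf13b (BAFF) at 2.41 and Il7 at 1.75. Their sum, 32.2 to 58.9 CPM in controls, was 102 to 303 CPM in stable tumours, which did not overlap. Sinus and marginal zone macrophage genes had 1 of 4 called higher, Marco at 3.34, and a list median of -0.53 against 0.07 for all genes. Here and for the reticular cell genes, 27.7% of all genes were called higher, so the macrophage share was near that of all genes. Responders had 3 of 4 macrophage genes below non-responders, among them Cd209b at -2.70, where 23.8% of all genes were lower. Plasma cell genes had 5 of 5 tested higher than in controls, with Jchain at 3.75, Igkc at 3.54 and Mzb1 at 3.24. The plasma cell sum was 14.0 to 90.0 CPM in controls and 161 to 987 CPM in stable tumours. In responders, at 27.5 to 461 CPM, and non-responders, at 69.9 to 172 CPM, it overlapped the controls, and 2 of 5 genes were called in non-responders.

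Naive and central memory T cell genes, which are also found in lymph node lymphocytes, had 5 of 8 called higher than in controls, with Il7r at 3.36 and Satb1 at 2.23 among them. Genes of migratory mature dendritic cells had 6 of 7 higher, with Apol7c at 3.76 and Ccl22 at 2.32, and 1 lower, which is neither of these. In both lists' comparison 27.7% of all genes were called higher and 23.4% lower. The dendritic cell sum, led by Fscn1 and Cacnb3, was 85.7 to 133 CPM in controls and 181 to 277 in stable tumours. It overlapped the controls in non-responders, at 87.7 to 219 CPM, and responders, at 121 to 258 CPM. Mammary epithelium, the tissue beside which the inguinal node lies, was checked with 6 milk genes. None was tested: Csn1s1, Csn1s2a and Csn2 had 0 counts in all 25 tumours, and the list's sum reached 7.79 CPM at most, in a non-responder. These are genes of milk secretion, and the sex and lactation state of the mice are not given here. Low counts therefore cannot show that mammary tissue was absent from the pieces. Keratinocyte genes, led by Krt5 and Krt14, summed to 1.98 to 1512 CPM within responders and 10.2 to 558 CPM within controls.

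Single tumours stood out for these markers. Responder 6, with the highest Cxcr5, also had the highest Ms4a1 (5.00 CPM), Pax5 (6.23), Cd79a (4.44), Cr2 (3.68) and Fcer2a (1.70) of all 25 tumours. Its Cxcl13 of 4.53 CPM was the highest among responders, and its Glycam1 count was 0. In its scaled library of 10.6 M counts, that 0 allows up to 0.283 CPM. This is above the highest Glycam1 level of any tumour, 0.167 CPM, so the 0 does not set responder 6 apart. The next tumour for Ms4a1 was stable 2, at 2.44 CPM. Non-responder 6 had the highest T and B cell sums of its group, 212 and 48.4 CPM, along with the group's highest Ccr7, Lta and Ltb. Responder 5 had the highest Lta, Ltb, Ccr7 and Ccl21a of the responders and the highest T cell sum of all tumours, 273 CPM.

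Across tumours, members followed lymphocyte markers to different degrees. For 25 tumours, with the group mean taken off each value and permutations made within groups, 16 relations were computed between 8 members and the B and T cell sums, and 13 had adjusted p under 0.05 by both coefficients. How many of all genes follow these sums was not computed, so this count does not set the members apart. Ltb followed the T cell sum most closely (Pearson r = 0.93, rho = 0.88, adjusted permutation p = 8e-05 for both, raw p = 1e-05, the smallest that 100000 permutations can give). Ccr7 had r = 0.88 and rho = 0.88 with T cells (adjusted permutation p = 0.000107 for both). With B cell markers the values were r = 0.86 for Ltb, 0.82 for Ccr7, 0.78 for Cxcr5, 0.65 for Cxcl13 and 0.57 for Ccl19. Leaving out the 2 tumours farthest from the median, r was 0.90 for Ltb with T cells. The Ccl19 relation with B cells no longer held in CPM (r = 0.41, adjusted permutation p = 0.143). Within groups, Ltb and T cells had r of 0.98 (non-responders), 0.86 (stable) and 0.89 (responders), but Cxcl13 and B cells had 0.58, 0.18 and 0.85. Ltbr followed neither sum (r = -0.21 with B cells and -0.16 with T cells). The sums, members and library composition come from the same libraries. With Cd22 left out of the B cell list, a choice made after seeing its level, r was 0.83 for Cxcr5, 0.78 for Cxcl13 and 0.61 for Ltb. With members and sums as log2(RPKM + 1), Ccl19 and B cells had r = 0.74 (adjusted permutation p = 0.00154). That value was 0.58 without the 2 farthest tumours (adjusted permutation p = 0.0368). Ccl19 and T cells had r = 0.69 there (adjusted permutation p = 0.00224), against 0.42 in CPM (adjusted permutation p = 0.0701).

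**Figure D4:**
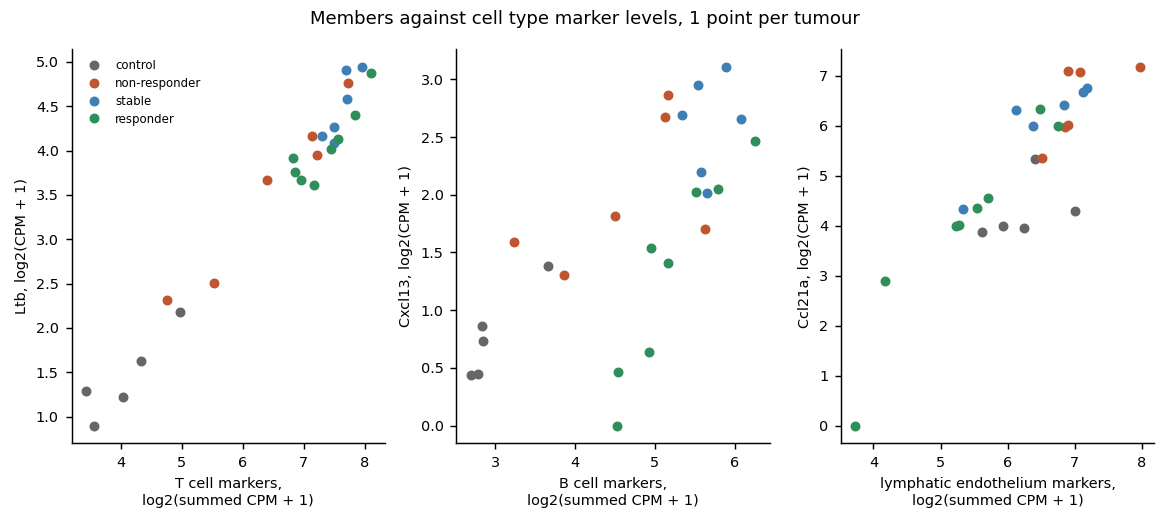
Ltb against T cell markers, Cxcl13 against B cell markers and Ccl21a against lymphatic endothelium markers, each as log2(CPM + 1), with 1 point per tumour coloured by group. With group means taken off, r is 0.93 for Ltb and 0.65 for Cxcl13, whose points spread more. These r values used members in log2 CPM with a prior count of 2, not the plotted scale.

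Ccl21a followed lymphatic endothelium. Its 3 most similar genes among 13183 over 25 tumours, by group-centred correlation of log2 CPM, were Ackr2 (r = 0.92), a scavenger receptor of lymphatic endothelium, Mmrn1 (0.91), a marker of the same cells, and Klhl4 (0.89). A relation of Ccl21a with the 5 lymphatic endothelium markers was computed after these names were seen and is no independent support: r was 0.81 and rho 0.83 over 25 tumours (permutation p = 2e-05 and 1e-05, adjusted over 2 relations 2e-05 and 1e-05), and r was 0.84 without the 2 farthest tumours. By outcome, r was 0.92 for stable tumours, 0.88 for responders and 0.71 for non-responders. The lymphatic markers fell in responders against non-responders in 4 of 5 genes, Mmrn1 by 1.94, Lyve1 by 1.90, Reln by 1.24 and Flt4 by 1.19, and their sum was 12.3 to 106 CPM in responders against 89.9 to 251 in non-responders. Among all genes 23.8% were called lower in that comparison. The part of the lymphatic markers in the Ccl21a difference was not tested.

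The other members had neighbours of different kinds. Ltb's were Lfng (r = 0.97), a Notch-modifying enzyme, Il2rb (0.95), a receptor subunit of T and NK cells, and Ipcef1 (0.94). Ccr7's were Rassf5 (0.94), Cybb (0.92), a subunit of the phagocyte oxidase, and Rac2 (0.92), a GTPase of blood cells. Lta's were Gfi1 (0.84), Ptpn7 (0.84) and Prkcd (0.83). Cxcl13's were Tdrp (0.86), Pdgfra (0.85), a receptor of fibroblasts, and Evi2b (0.84). Ccl19's were Map10 (0.80), Rarres2 (0.77), which encodes chemerin, and Angpt4 (0.75), and Ltbr's were Ykt6 (0.90), Psmd1 (0.89) and Clptm1 (0.89). Among the members themselves the highest such r was 0.85, between Ccr7 and Ltb, and Cxcl13 and Ccl21a had 0.80.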

How the data were processed

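RNA from 25 mouse melanomas was sequenced, 1 library per tumour. The deposited count table holds expected counts per gene made by the authors, 5.64% of them not whole, and a second deposited table holds RPKM values by the authors for 19518 symbols, with 8 of the 9 members. The submitters' processing notes name bcl2fastq 2.17, Trimmomatic, STAR 2.5.1, RSEM 1.2.22 and mm10, with no order or role, and the annotation is not given in the sources used here. All 55450 identifiers matched GENCODE M21 (GRCm38), which gave symbols, coordinates, lengths and coding sequences, and promoters came from RefSeq (GRCm38.p6).

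Counts were rounded to whole numbers, since whole counts had been assumed. edgeR 4.0.16 (R 4.3.3) kept 18031 genes by filterByExpr, scaled libraries by TMM and fitted 4 group means over 25 tumours with the robust quasi-likelihood test. It tested 7 comparisons, with Benjamini-Hochberg adjustment over all genes and a threshold of 0.05. Tumours are from separate mice, and each group was taken from the labelled outcome or antibody. Library totals were 8.76 to 34.3 M. Limits on a count of 0 use 3 counts and cover counting error only. The fit was tested on simulated data of stable minus non-responder tumours over 18031 genes: of 200 changed genes it recovered 90% of 4-fold and 19% of 2-fold changes, and 1.8% of its calls were false. Every simulated gene had the same spread between tumours. In that comparison the members' SE ran from 0.14 for Ltbr to 0.93 for Ccl19, so these rates do not carry over to single members.

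Results were recomputed with DESeq2 1.42.0, with RLE factors in edgeR, with every gene that had a count, with a stricter filter (at least 1 CPM in 8 tumours, mean count at least 50), with only the groups compared, with Ccl21 copies summed, on protein-coding genes alone, with the percentage of counts in such genes as a covariate, by limma 3.58.1 on log2(RPKM + 1) with RPKM of at least 0.1 in 5 tumours, and without each tumour in turn. Summing Ccl19 copies, leaving out responders under 65% protein-coding counts, dropping Cd22 from the B cell list and relating Ccl21a to lymphatic markers were added after seeing the data.

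Relations across tumours used edgeR log2 CPM with a prior count of 2 for the members and log2(CPM + 1) for the marker sums. Group means were removed and permutations made within groups. The members and the 18 gene lists were chosen with earlier results of these data known. Every member is named. From each list the text names up to 3 called genes with the largest change and a mean of at least 1 CPM, and for cell types the 2 most abundant genes. For each member with that mean, the 3 most correlated protein-coding genes are named. Chst4, the casein genes, Cr2, Fcer2a and the genes named for responder 6 were singled out after their values were seen. Some genes of the lists are not reported here.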

Additional observations from a re-analysis of the deposited data

Results flagged for a closer look

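Each value below is one tumour that lay far from the rest of its group, by Dixon's criterion. It was applied to 43 groups of tumours, and 8 met it. The rate of about 1 in 20 groups by chance assumes independent, normally distributed values, which these are not. A group with counts in only 1 tumour meets it by construction, and the summed copies share counts with Ccl21a and Ccl19. The 8 are therefore not set against that rate.

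Ccl21a was 39.4 CPM in control 2, against 13.7 to 18.6 CPM in the other controls, and the Ccl21 copies summed gave 57.8 CPM there, against 20.0 to 28.6 CPM. Control 5 had 5.43 CPM of Ccr7, the other controls 1.27 to 2.21 CPM. Non-responder 6 stood apart for Ccr7, 17.5 CPM against 1.59 to 6.28 CPM, and for the Ccl19 copies summed, 13.3 CPM against 0.945 to 4.69 CPM. Its Glycam1 level of 0.0382 CPM rests on 1 count, where the other non-responders had 0. Stable 3 had 0.167 CPM of Glycam1, from 3 counts, against at most 0.0622 CPM in the other stable tumours. Cxcr5 was 3.49 CPM in responder 6 and 0.223 to 1.36 CPM in the other responders.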

How the results depend on the processing

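Of the 8 members called in anti-CTLA-4 tumours and the 8 in stable tumours, both against controls, 5 were called under the stricter filter, and 4 of 7 in responders, since that filter removed Ccl19, Cxcr5 and Lta. In non-responders minus controls 5 members were called, but 3 without a low-count filter, 3 with the stricter one and 3 by limma on RPKM, which lacks Ccl21a. DESeq2 called 7, adding Ccl19 and Ccr7, and 6 were called with the protein-coding share as covariate or without the responders under 65%, each adding Ccl19. The count was 2 to 7 with single tumours left out. Stable minus non-responder had 2, but 1 without a filter, 1 with the stricter filter, 1 with only the groups compared, and 1 to 3 with single tumours left out. Responder minus stable had 2, but 0 with the protein-coding share as covariate, 1 with only the groups compared, 0 without the responders under 65%, and 1 to 3 with single tumours left out. Responder minus non-responder had 3, but 1 with that covariate. The covariate cut the share of all genes called from 38.2% to 0% in responder minus stable and from 48.9% to 10.04% in responder minus non-responder, and leaving out those responders cut the first to 7.85%.

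Directions turned only for values that were not called. The covariate gave 0.22 for Cxcl13 in responders minus non-responders and 0.95 for Ccl19 in responders minus stable. Lta in responders minus stable, 0.00, became -0.033 without a filter, -0.079 with the covariate, -0.046 without the responders under 65%, and -0.20 to 0.12 with single tumours left out. Single tumours left out also gave -0.21 to 1.00 for Ccl19 in responders minus non-responders, and -0.28 to 0.33 for Cxcr5 in responders minus stable. Without the 2 farthest tumours the Ltbr relations became 0.25 with B cells and 0.022 with T cells. Of 1400 leave-one-out log2 fold changes, 1315 kept direction and call, 60 lost the call, 11 gained it and 14 turned. Cxcl13 in responders minus controls was not called with RLE factors (1.33, adjusted p = 0.0509), without a filter (1.20, adjusted p = 0.0966), with only the groups compared (1.27, adjusted p = 0.124) or by limma on RPKM (0.51, adjusted p = 0.194), but was with the covariate (2.48, adjusted p = 0.0106) and without the responders under 65% (1.62, adjusted p = 0.0147). The cause of these changes was not tested.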
